A study of Rattus norvegicus with 9 samples.

Results

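The collagen genes were examined in skin of rats given carrageenan (CGN), a polysaccharide from red seaweed that sets off acute inflammation. All genes whose symbol in the deposited table has the form Col, number, a, number were taken, which gave 37 of the 19101 genes tested, represented by 58 probe sets (sets of array probes summarised into 1 value). The CGN group was 4 Sprague Dawley rats given 30 mg/kg carrageenan, with paw swelling and pressure pain tested after 3 hours and skin taken after 4 hours. The controls were 5 Sprague Dawley rats without CGN, for which no dose, time of paw tests or time of harvest was used here. The labels name neither the route, the skin area, the sex nor the age, and effects of CGN cannot be told apart from those of dosing or paw testing. The number of arrays equals the number of rats in each group, and the p-values measure the spread between these arrays.

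Collagens are proteins, most of them secreted, whose chains wind around each other into a long helix of repeated glycine-containing units. Fibrillar collagens build the cable-like fibrils that give dermis its strength, network collagens form the sheet of the basement membrane under the epidermis and around vessels, muscle fibres and nerves, and FACIT collagens (fibril-associated collagens with interrupted helices) sit on the fibril surface. Anchoring collagens tie the epidermis to the dermis: collagen VII makes the anchoring fibrils, and collagen XVII crosses the membrane of basal keratinocytes in the hemidesmosome, the rivet-like junction under these cells. Collagen protein in skin is long-lived, whereas the arrays measured messenger RNA. By class the 37 genes were 11 fibrillar, 7 basement membrane (collagen IV chains and the endostatin-bearing collagens XV and XVIII), 8 FACIT, 2 anchoring, 4 beaded filament (collagen VI), 3 short-chain (VIII and X) and 2 transmembrane (XIII and XXIII) genes. Collagen genes outside these 37 were not analysed here.

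Sequence before the annotated start was taken for both anchoring collagens, which fell, for Col8a1 and Col27a1, which rose, and for the stretch shared by both common collagen IV chains, to show which simple promoter letters they carry. The sequences are RefSeq's for the assembly GRCr8 and end at the base before the start, and 30 of the 37 collagens had one. Capitals mark matches to the TATA box with letters TATAAA, the CAAT box with letters CCAAT, the GC box that Sp1-type factors bind with letters GGGCGG, and the AP-1 type motif with letters TGANTCA. Each was searched on both strands, and matches that overlap another are joined.
Col7a1, chr8:118483114-118483363, + strand: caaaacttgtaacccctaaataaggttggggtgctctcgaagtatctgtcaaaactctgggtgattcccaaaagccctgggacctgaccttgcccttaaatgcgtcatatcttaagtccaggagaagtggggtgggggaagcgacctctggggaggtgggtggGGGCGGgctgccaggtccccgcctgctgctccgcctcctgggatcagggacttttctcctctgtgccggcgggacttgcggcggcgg
Col17a1, chr1:256518858-256519107, - strand: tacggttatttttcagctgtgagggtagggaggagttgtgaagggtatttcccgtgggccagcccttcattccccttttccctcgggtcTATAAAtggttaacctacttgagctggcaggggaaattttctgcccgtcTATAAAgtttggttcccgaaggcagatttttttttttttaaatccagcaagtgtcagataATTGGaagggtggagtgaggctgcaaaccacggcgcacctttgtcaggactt
Col8a1, chr11:56246532-56246781, + strand: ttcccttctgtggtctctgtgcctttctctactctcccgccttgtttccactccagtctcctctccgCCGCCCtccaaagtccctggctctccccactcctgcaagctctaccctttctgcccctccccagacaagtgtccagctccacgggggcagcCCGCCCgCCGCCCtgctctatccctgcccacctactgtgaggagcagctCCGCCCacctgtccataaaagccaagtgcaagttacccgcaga
Col27a1, chr5:81662658-81662907, + strand: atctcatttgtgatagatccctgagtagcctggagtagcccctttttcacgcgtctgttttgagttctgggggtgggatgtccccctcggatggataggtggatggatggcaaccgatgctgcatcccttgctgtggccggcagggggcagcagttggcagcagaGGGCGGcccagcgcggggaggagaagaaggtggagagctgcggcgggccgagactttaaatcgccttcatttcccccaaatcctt
Col4a1 to Col4a2, chr16:84885521-84885596, + strand: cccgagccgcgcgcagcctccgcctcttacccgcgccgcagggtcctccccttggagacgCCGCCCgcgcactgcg
GGGCGG stood in the 250 bases before the start of 18 of the 30 collagens, against 32.4% of 27457 genes with such a sequence. It was found in all 4 collagens that rose, in 3 of the 4 that fell and in 11 of the 22 others with a sequence. TATAAA was found in 4 of the 30 collagens (13.1% of all genes), CCAAT in 8 (34.3%) and TGANTCA in 1 (6.36%), Col6a1. The Col17a1 stretch held TATAAA at 2 places and no GGGCGG, whereas Col8a1 held GGGCGG at 4 places. Col8a2, which did not pass, held GGGCGG at 5 places and Col23a1, which fell, at 2. These matches are descriptions of letters and not sites shown to act.

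Of the 37 collagens, 4 rose and 4 fell in CGN skin, or 21.6% in all, while 22.2% of all genes tested passed the same threshold (limma, adjusted p under 0.05). Among all genes 8.72% rose and 13.5% fell. The share in the family was close to that of the array as a whole. Col8a1, Col4a1, Col27a1 and Col16a1 rose, and Col7a1, Col4a5, Col17a1 and Col23a1 fell. The abundant chains of dermal collagens I, III, V and VI did not pass, and the median log2 change over the 37 (log2 intensity in CGN minus control) was 0.09, against -0.01 over all genes. Of the 37, 24 lay above 0 and 13 below, against 8996 and 10105 of the 19101 genes. The median absolute log2 change was 0.16 over the collagens and 0.16 over all genes. The CGN and control arrays did not overlap for 6 collagens, Col27a1, Col3a1 and Col10a1 on the high side and Col7a1, Col17a1 and Col23a1 on the low side. That is 16.2% of the family, against 19.1% of all genes, of which 8.44% were higher and 10.6% lower.

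**Figure D1:**
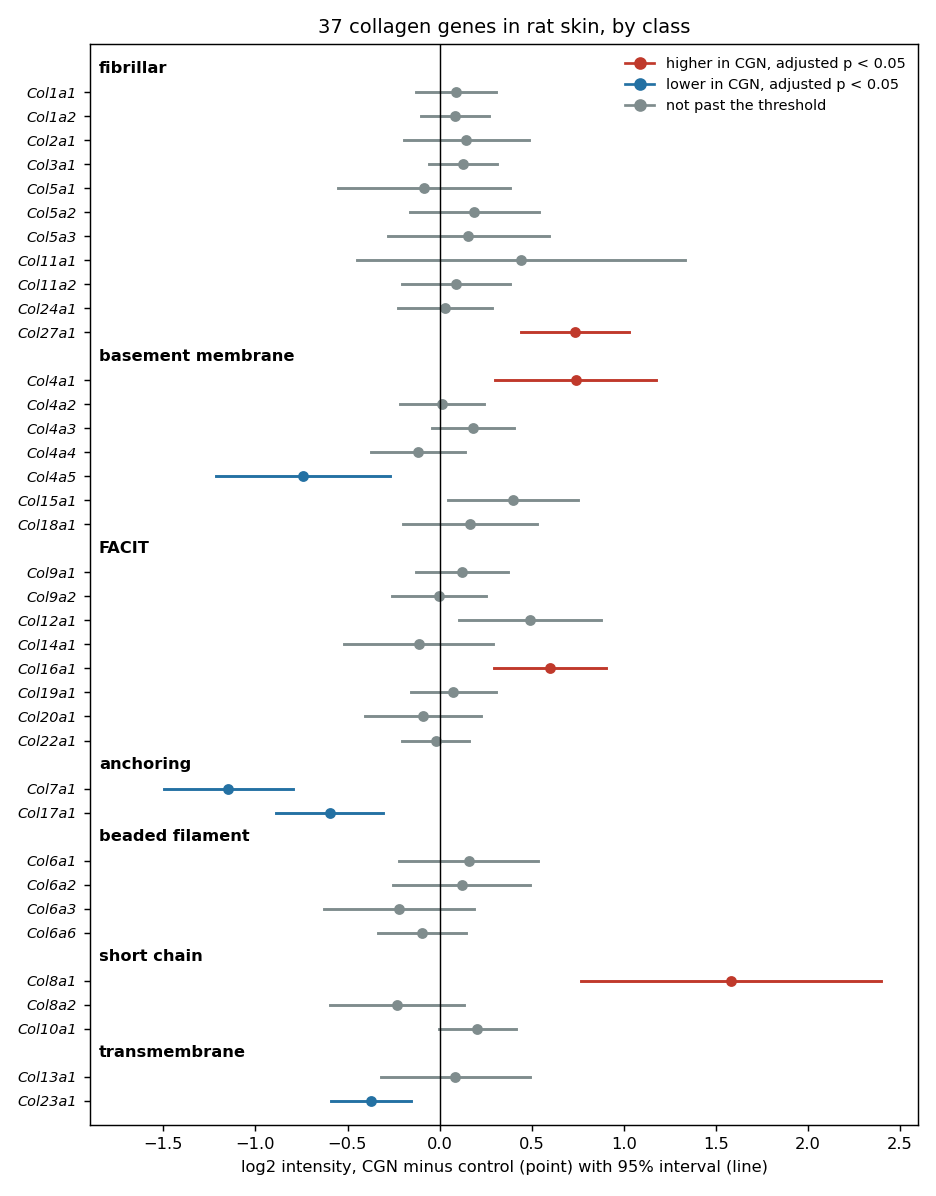
The log2 change of each of the 37 collagen genes (horizontal axis, CGN minus control, with its 95% interval) is plotted by class for 4 CGN and 5 control arrays. Both anchoring collagens lie left of 0, with Col7a1 at -1.15 and Col17a1 at -0.60, and Col8a1 lies farthest right at 1.58.

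The arrays fell into their labelled groups, with 1 CGN array standing apart. On the first principal component over all genes, which held 65.6% of the variance, CGN replicate 1 scored -20.8, the other CGN arrays -55.1 to -53.7 and the controls 33.0 to 41.3. CGN replicate 1 was the lowest CGN array for 20 of the 37 collagens. Collagen results that turn on it are given with and without it. The keratins Krt14 and Krt5 were bright on all arrays. Mean intensities in CGN and control skin were 19836 and 20492 for Krt14 and 3291 and 4018 for Krt5. Not all 10 measured keratinocyte markers were bright: Ivl had means of 13.4 in CGN and 15.6 in control skin. Markers of skeletal muscle differed widely. The mean log2 intensity of 23 measured muscle genes lay between 5.27 and 7.47 in CGN and between 8.17 and 10.7 in control skin. Of the 23, 20 fell while none rose, against 13.5% and 8.72% of all genes. Leukocyte markers were higher in CGN skin on every array (mean of 10 markers 8.96 to 9.57 in CGN, 7.47 to 7.66 in control). Of the 10, 8 rose, against 8.72% of all genes. Fibroblast markers overlapped (mean of 12 markers 8.50 to 9.13 in CGN, 8.34 to 9.0 in control). Of the 12, 1 rose, Pdgfra, and 0 fell, against 8.72% and 13.5% of all genes. In bulk skin, fewer cells of a type and less RNA per cell cannot be told apart. The files hold no detection calls, so a low intensity cannot be called absent, and levels are not compared between genes because each probe set has its own brightness.

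**Figure D2:**
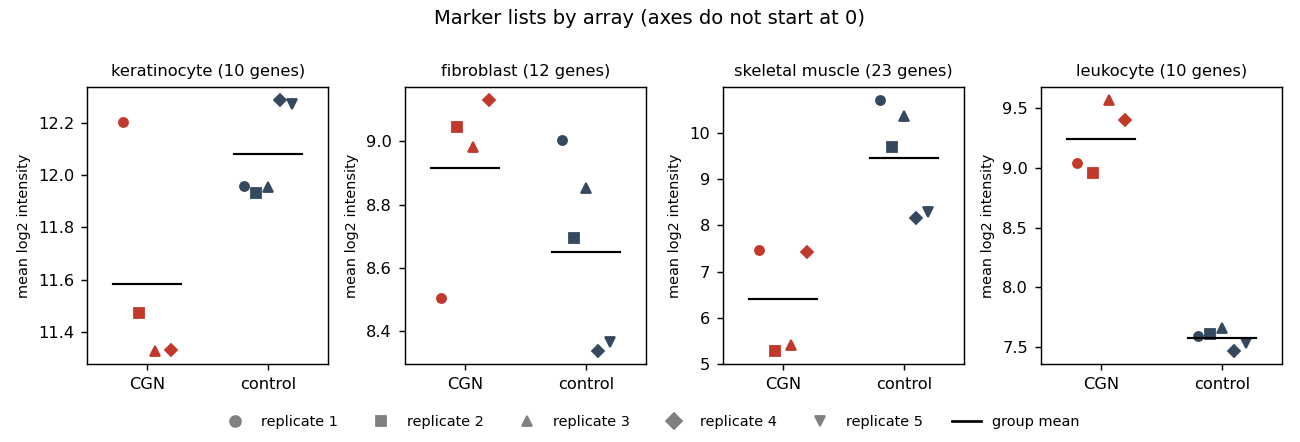
The mean log2 intensity of the marker lists for keratinocytes, fibroblasts, skeletal muscle and leukocytes is shown by array, with CGN left of control. CGN replicate 1 lies at 12.2 for keratinocyte markers, within the control range of 11.9 to 12.3, while the other CGN arrays lie between 11.3 and 11.5, a gap that comes largely from Krt15.

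Both collagens of the epidermal anchor fell. Col7a1, the anchoring fibril collagen, had intensities of 445, 323, 257 and 318 in CGN skin (replicates 1 to 4), against 627, 718, 890, 775 and 659 in control skin (replicates 1 to 5). The groups did not overlap, and every CGN array lay below every control. Its mean intensity was 329 in CGN and 728 in control skin, and it fell by 1.15 ± 0.16 on the log2 scale (standard error; 95% interval -1.49 to -0.80, adjusted p = 0.000578). Col17a1, the hemidesmosomal collagen, had intensities of 3447, 2616, 2726 and 2364 in CGN skin (replicates 1 to 4), against 3601, 4629, 4876, 3782 and 4140 in control skin (replicates 1 to 5). Here too the groups were separate, with CGN replicate 1 close to the lowest control. Col17a1 fell by 0.60 ± 0.13 (adjusted p = 0.00802), or to 0.661 of the control mean. Without CGN replicate 1 the log2 changes were -1.29 ± 0.14 for Col7a1 and -0.70 ± 0.12 for Col17a1 (adjusted p = 7.15e-05 and 0.00177).

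Other genes of the hemidesmosome and of keratinocytes were measured beside these collagens. Of 5 measured hemidesmosome partners, 0 passed limma at an adjusted p under 0.05 and 1 had an unadjusted p under 0.05, the integrin Itgb4, the hemidesmosome's β4 chain, at -0.38 ± 0.14 (adjusted p = 0.0777). All 10 measured keratinocyte markers lay below 0 (10105 of 19101 over all genes), with a median log2 change of -0.25. Of the 10, 2 fell (Krt2 and Tp63), against 13.5% of all genes. The list mean was 11.3 to 12.2 in CGN and 11.9 to 12.3 in control skin. Most of that spread came from 1 marker, Krt15, a keratin of basal and hair follicle cells, named after its values were seen. Krt15 had intensities of 5538, 88.0, 61.9 and 70.6 in CGN skin (replicates 1 to 4), against 566, 367, 3458, 2013 and 2199 in control skin (replicates 1 to 5). CGN replicate 1 lay above every control for Krt15 and the other CGN arrays below every control. Over the 9 markers without Krt15 the mean was 11.9 to 12.2 in CGN and 12.0 to 12.4 in control skin, and CGN replicate 1 was still the highest CGN array, as it was for Col7a1 and Col17a1. The part of keratinocyte RNA in the falls of Col7a1 and Col17a1 was not tested.

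Among the transmembrane collagens, Col23a1 fell. Col23a1, a collagen that spans the cell membrane, had intensities of 39.6, 33.4, 42.4 and 32.5 in CGN skin (replicates 1 to 4), against 46.5, 47.9, 50.1, 47.1 and 46.3 in control skin (replicates 1 to 5). The controls were close together and lay above all CGN arrays. The change was -0.37 ± 0.10 (adjusted p = 0.0197), at -0.41 ± 0.11 without CGN replicate 1 (adjusted p = 0.0179), and the call was lost without CGN replicate 2 or 4. Col13a1, a membrane collagen known from the neuromuscular junction, was at 0.08 ± 0.18 (95% interval -0.32 to 0.49).

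In the basement membrane class 1 collagen rose and 1 fell. Col4a1, which with Col4a2 makes the common collagen IV network, had intensities of 880, 1403, 1880 and 1591 in CGN skin (replicates 1 to 4), against 833, 930, 972, 747 and 701 in control skin (replicates 1 to 5). CGN replicates 2 to 4 lay above all controls, while CGN replicate 1 lay among them. Col4a1 rose by 0.74 ± 0.20 (adjusted p = 0.0208), a 1.67-fold difference (95% interval 1.23 to 2.26). Without CGN replicate 1 the log2 change was 0.96 ± 0.14 (adjusted p = 0.000607). The call was lost without CGN replicate 2, 3 or 4 or control replicate 5, and the gene's dimmer probe sets, at 0.24 ± 0.11 and 0.32 ± 0.14, did not pass (adjusted p = 0.196 and 0.160 over all probe sets).

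Col4a2, the partner chain, did not pass. It had intensities of 109, 110, 112 and 113 in CGN skin (replicates 1 to 4), against 136, 97.5, 113, 106 and 102 in control skin (replicates 1 to 5). The CGN arrays lay inside the control range, and the log2 change was 0.01 ± 0.10, with a 95% interval of -0.22 to 0.24. Its other probe set gave -0.02 ± 0.18. Both genes start from the stretch of 76 bases printed above, on opposite strands.

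Col4a5, the chain that with Col4a6 is also part of the epidermal basement membrane, fell. Its intensities were 51.0, 33.6, 30.4 and 24.9 in CGN skin (replicates 1 to 4), against 49.6, 74.1, 65.7, 56.1 and 42.3 in control skin (replicates 1 to 5). CGN replicates 2 to 4 lay below all controls and CGN replicate 1 within them. The log2 change was -0.74 ± 0.21 (adjusted p = 0.0290), and -0.94 ± 0.18 without CGN replicate 1 (adjusted p = 0.00320). Leaving out any 1 of 3 other CGN arrays or of control replicates 2, 3 and 4 ended the call. Col4a3 (0.18 ± 0.10) and Col4a4 (-0.12 ± 0.12), which join Col4a5 in kidney basement membrane, did not pass, and Col4a4 was dim at mean intensities of 11.8 in CGN and 12.8 in control skin.

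The endostatin-bearing collagens of the basement membrane zone did not pass with all arrays. Col15a1 had intensities of 403, 710, 581 and 551 in CGN skin (replicates 1 to 4), against 490, 364, 458, 429 and 361 in control skin (replicates 1 to 5). CGN replicate 1 was again the only CGN array inside the control range. Its log2 change was 0.40 ± 0.16 (adjusted p = 0.106), and it passed without CGN replicate 1 at 0.55 ± 0.14 (adjusted p = 0.0129). Col18a1 was at 0.17 ± 0.17 (95% interval -0.20 to 0.53), and at 0.34 ± 0.13 without CGN replicate 1 (adjusted p = 0.0857).

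Of 13 measured genes for laminins and other basement membrane partners, 2 rose and 4 fell, against 8.72% and 13.5% of all genes. The widely used laminin chain Lamc1 rose by 0.49 ± 0.13 (adjusted p = 0.0166). Laminin chains Lama5 (-0.54 ± 0.11) and Lamb2 (-0.46 ± 0.13), the proteoglycan agrin, Agrn (-0.87 ± 0.19), and the calcium-binding Smoc2 (-1.04 ± 0.31) fell (adjusted p = 0.00528, 0.0279, 0.00776 and 0.0347). Smoc2 had intensities of 911, 259, 295 and 321 in CGN skin (replicates 1 to 4), against 902, 671, 876, 785 and 760 in control skin (replicates 1 to 5). CGN replicate 1 lay above every control and the other CGN arrays below every control, and the call was lost without any 1 of the other 8 arrays. The Lamb2 call was lost without CGN replicate 2 or 3 or control replicate 1, 3 or 5 and on its second probe set, and the Lamc1 call without CGN replicate 2 or 4 and on its second probe set. Laminin chains moved in both directions. Lama5 did not pass on the mean of its probe sets (-0.25, adjusted p = 0.0835).

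**Figure D3:**
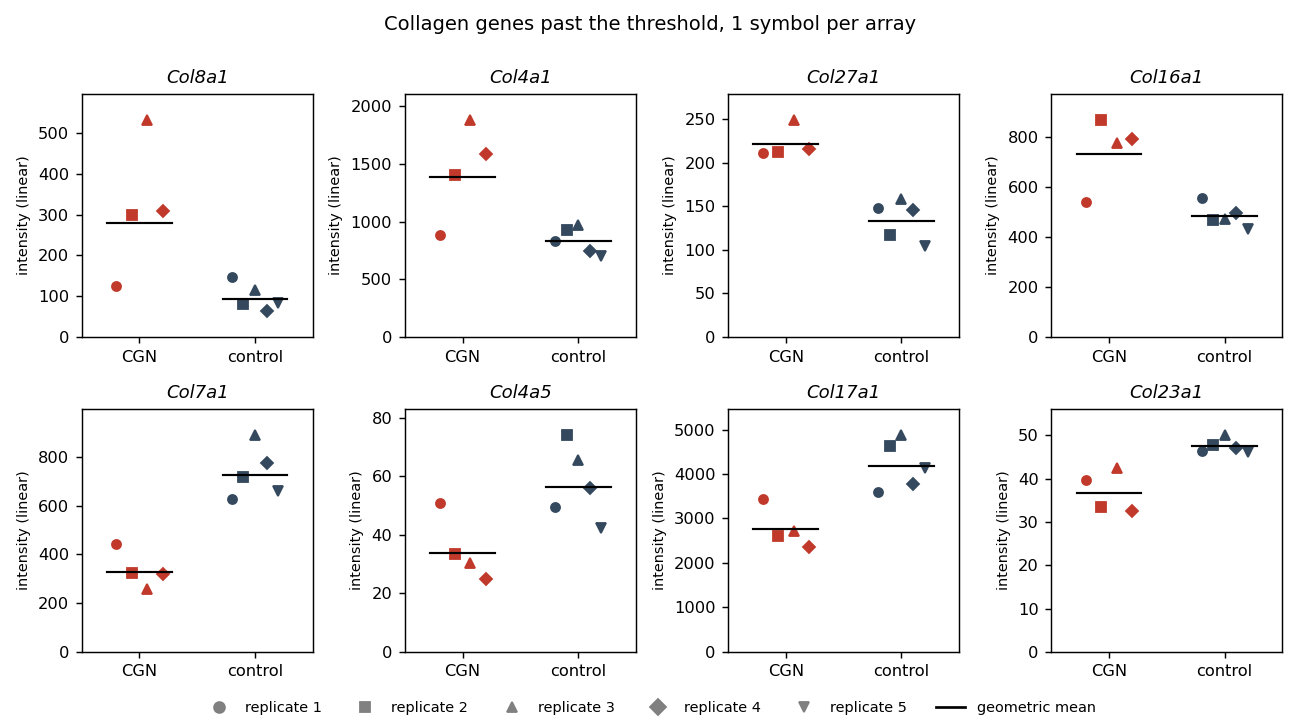
Intensity on a linear axis starting at 0 is shown by array for the 8 collagens past the threshold, CGN left of control, with 1 symbol per replicate and the geometric mean as a bar. CGN replicate 1 (circle) is the CGN array nearest the controls for all but Col23a1.

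The main fibril chains of dermis did not pass. Col1a1, the larger share of collagen I, had intensities of 16477, 16524, 16796 and 16223 in CGN skin (replicates 1 to 4), against 17965, 15515, 16674, 14586 and 13324 in control skin (replicates 1 to 5). Every CGN value lay inside the control range, and the log2 change was 0.09 ± 0.10, with a 95% interval of a 0.914-fold to 1.23-fold difference. Col1a2, its partner chain, was at 0.09 ± 0.08 (0.933-fold to 1.21-fold). Col3a1, the collagen of pliable fibrils, had intensities of 20584, 20869, 20674 and 23003 in CGN skin (replicates 1 to 4), against 20527, 18531, 20557, 19679 and 18162 in control skin (replicates 1 to 5). All CGN arrays lay above all controls by a small margin, and the change of 0.13 ± 0.08 did not pass (adjusted p = 0.336). The dimmer Col1a1 probe set, at mean intensities of 5467 in CGN and 5104 in control skin, gave 0.10 ± 0.19.

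Collagen V, which seeds fibrils and limits their width, was spread more widely. Col5a1 had intensities of 1359, 1837, 1741 and 1859 in CGN skin (replicates 1 to 4), against 2414, 1653, 2478, 1558 and 1182 in control skin (replicates 1 to 5). The control arrays spanned more than the CGN arrays, and the log2 change was -0.08 ± 0.21. Col5a2 was at 0.19 ± 0.16 and Col5a3 at 0.16 ± 0.20, and the second Col5a2 probe set gave -0.18 ± 0.15, so the sign of Col5a2 depended on the probe set. Intervals for the 3 chains reached from -0.55 to 0.59. Without CGN replicate 1, Col5a3 was at 0.38 ± 0.13 (adjusted p = 0.0557).

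Col27a1, a minor fibrillar collagen known mainly from cartilage, was the fibrillar collagen past the test. It had intensities of 212, 212, 249 and 216 in CGN skin (replicates 1 to 4), against 148, 117, 159, 146 and 104 in control skin (replicates 1 to 5). The groups did not overlap, and CGN replicate 1 lay with the other CGN arrays. Col27a1 rose by 0.73 ± 0.13 (adjusted p = 0.00279), a 1.66-fold difference, and by 0.76 ± 0.15 without CGN replicate 1 (adjusted p = 0.00360). The next probe set of the gene did not pass (-0.00 ± 0.09), while its dimmest one rose by 0.42 ± 0.13 (adjusted p = 0.0488 over all probe sets), so the rise was seen on 2 of 3 probe sets.

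Fibrillar collagens best known from cartilage or as minor chains did not pass. Col2a1, the main cartilage collagen, was at 0.15 ± 0.15, Col11a2 at 0.09 ± 0.13 and Col24a1 at 0.03 ± 0.12. Col11a1 had intensities of 72.7, 178, 115 and 156 in CGN skin (replicates 1 to 4), against 153, 97.2, 165, 46.8 and 53.8 in control skin (replicates 1 to 5). That was the widest spread of any of the 11 fibrillar genes, with control values that varied more than 3-fold, and its log2 change of 0.44 ± 0.40 had a 95% interval of -0.45 to 1.33 (0.70 ± 0.40 without CGN replicate 1). In the class as a whole 10 of 11 genes lay above 0 (8996 of 19101 over all genes), at a median log2 change of 0.13 (-0.01 over all genes). Only 1 of the 11 passed, and all were read from the same RNA of each rat. On the second brightest probe set the sign turned for Col5a2, Col11a2 and Col27a1 and held for Col1a1, Col11a1 and Col24a1.

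Beaded filament collagen VI, which surrounds cells with fine microfibrils, did not pass for any of its 4 measured chains (0 at an unadjusted p under 0.05). Col6a1 had intensities of 1729, 2374, 1669 and 2383 in CGN skin (replicates 1 to 4), against 2180, 1620, 2305, 1599 and 1460 in control skin (replicates 1 to 5). The ranges of the groups overlapped, and the log2 change was 0.16 ± 0.17. Col6a2 was at 0.12 ± 0.17 and Col6a3 at -0.22 ± 0.18. Col6a3 had intensities of 1503, 1751, 1550 and 1603 in CGN skin (replicates 1 to 4), against 2423, 1855, 2295, 1857 and 1177 in control skin (replicates 1 to 5). The CGN arrays lay within the wide control range, whose lowest value was that of control replicate 5. Without that array Col6a3 was called lower, at -0.39 (adjusted p = 0.0477). Col6a6, at mean intensities of 8.01 in CGN and 8.56 in control skin, was dim (-0.10 ± 0.11).

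**Figure D4:**
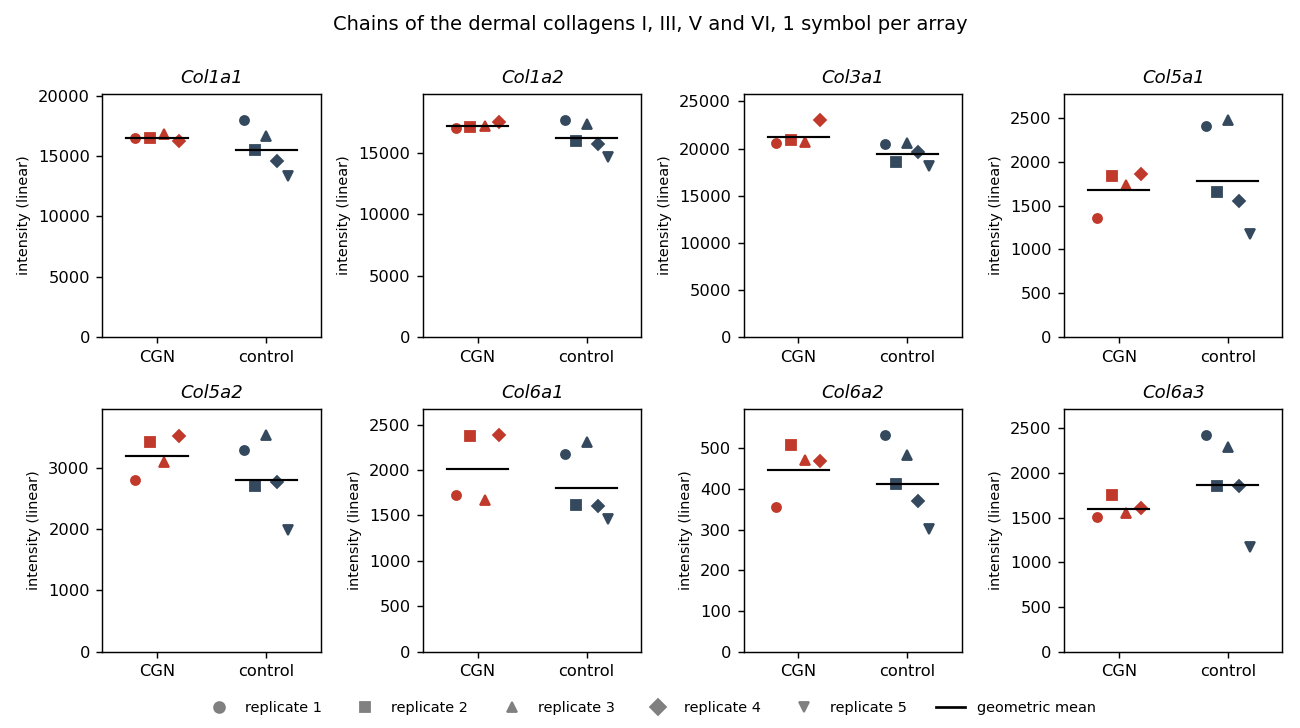
Intensity on a linear axis starting at 0 is shown by array for 8 chains of collagens I, III, V and VI, CGN left of control, with 1 symbol per replicate and the geometric mean as a bar. Control replicate 5 (downward triangle) is the lowest control in all 8 panels.

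Among the 8 plotted dermal chains, control replicate 5 was the lowest control for all 8, and control replicates 1 and 3 were each the highest for 4. Among CGN arrays, replicate 1 was the lowest for 6 of the 8 and replicate 4 the highest for 5. Over all 37 collagens control replicate 5 was the lowest control for 20 and the highest for 0. Within-group standard deviations on the log2 scale in controls ran from 0.08 for Col3a1 to 0.45 for Col5a1 among these chains, against 0.02 to 0.28 in CGN skin. Col5a3 was not among the 8 and differed from them: its lowest control was replicate 1 (346, against 357 for replicate 5), and its standard deviation was 0.50 in CGN and 0.12 in control skin. The chains were read from the same RNA of each rat, so they are not independent observations.

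Of the 8 FACIT collagens, Col16a1 rose and the others did not pass. Col16a1, which is found near fibrils and microfibrils in the upper dermis, had intensities of 538, 866, 775 and 790 in CGN skin (replicates 1 to 4), against 554, 468, 471, 494 and 432 in control skin (replicates 1 to 5). CGN replicates 2 to 4 lay above all controls, and CGN replicate 1 below the highest control. It rose by 0.60 ± 0.14 (adjusted p = 0.0102), or 1.52-fold, and by 0.75 ± 0.10 without CGN replicate 1 (adjusted p = 0.000463). Col12a1, which links neighbouring fibrils in tissue under load, had intensities of 944, 1234, 1490 and 892 in CGN skin (replicates 1 to 4), against 1024, 756, 793, 816 and 628 in control skin (replicates 1 to 5). CGN replicates 2 and 3 were above all controls. Its log2 change of 0.49 ± 0.17 did not pass (adjusted p = 0.0687), and passed without CGN replicate 1 (0.57 ± 0.19, adjusted p = 0.0451), CGN replicate 4 or control replicate 1.

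Col14a1, a FACIT collagen of mature dermal fibrils, did not pass. It had intensities of 476, 482, 407 and 550 in CGN skin (replicates 1 to 4), against 571, 456, 789, 408 and 433 in control skin (replicates 1 to 5). The groups overlapped, with CGN replicate 3 just under the lowest control, and the log2 change was -0.11 ± 0.18. Cartilage collagens Col9a1 (0.12 ± 0.11) and Col9a2 (-0.00 ± 0.12), and Col19a1 (0.07 ± 0.10), Col20a1 (-0.09 ± 0.14) and Col22a1 (-0.02 ± 0.08), a collagen of muscle-tendon junctions, had changes between -0.11 and 0.12 with Col14a1 included. Cartilage markers did not pass either (0 of 6 passed limma, mean log2 intensity 4.23 to 4.60 in CGN and 4.20 to 4.41 in control skin, 0 at an unadjusted p under 0.05).

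Col8a1 had the largest change of the family. This short-chain collagen forms open networks under endothelium and in the wall of growing or injured vessels. Its intensities were 125, 300, 532 and 310 in CGN skin (replicates 1 to 4), against 146, 81.8, 116, 62.8 and 83.4 in control skin (replicates 1 to 5). CGN replicates 2 to 4 lay above all controls, and CGN replicate 1 lay below control replicate 1. Col8a1 rose by 1.58 ± 0.37 (adjusted p = 0.0106), a 2.99-fold difference with a 95% interval of 1.70 to 5.26. Without CGN replicate 1 the log2 change was 1.97 ± 0.28 (adjusted p = 0.000450). The Col8a1 call was lost in the test without moderation of the variance (adjusted p = 0.0551) and in limma with a replicate block (adjusted p = 0.0587). Col8a2, which can join Col8a1 in the same network, had intensities of 130, 117, 74.2 and 108 in CGN skin (replicates 1 to 4), against 146, 103, 138, 113 and 122 in control skin (replicates 1 to 5). Its groups overlapped, at -0.23 ± 0.17, and its second probe set gave 0.22 ± 0.16. Col10a1, known from growth plate cartilage, was at 0.21 ± 0.09 (adjusted p = 0.155) at the low mean intensities of 15.6 in CGN and 13.5 in control skin.

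Vascular markers were measured beside Col8a1 and Col4a1, both made by vessel cells among others. Over all genes 8.72% rose and 13.5% fell, the shares to set beside the counts that follow. Of 10 endothelial markers 2 rose and 1 fell, with list means of 7.83 to 8.08 in CGN and 7.70 to 8.43 in control skin. Of 7 smooth muscle and pericyte markers 0 rose and 1 fell, with means of 6.98 to 7.43 in CGN and 7.19 to 8.01 in control skin. The CGN range lay inside the control range for endothelial markers and overlapped it for smooth muscle and pericyte markers. The Schwann cell markers (1 of 6 fell) had means of 6.67 to 7.22 in CGN and 7.08 to 8.15 in control skin, and the adipocyte markers (0 of 7 passed limma, 0 at an unadjusted p under 0.05) 5.25 to 6.19 in CGN and 4.84 to 5.80 in control skin.

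Chains of the same collagen type were compared within arrays, in 8 pairs chosen after the values were seen. For each pair the log2 intensity of the first chain minus that of the second was set against group with an exact permutation test (2-sided, 4 against 5 arrays, smallest possible p = 0.0159). The Col8a1 minus Col8a2 difference was 1.81 larger in CGN skin than in control (exact p = 0.0317), and the Col4a1 minus Col4a2 difference 0.73 larger (exact p = 0.0476). After adjustment over the 8 pairs both had p = 0.0952 in the exact test, as did Col4a3 minus Col4a4 (0.30) and Col5a1 minus Col5a2 (-0.27), so none passed. Col5a1 minus Col5a2 was the pair whose groups did not overlap, and its sign turned with the second probe set of Col5a2 (0.09). The pair Col1a1 minus Col1a2 moved least, at 0.00 (exact p = 0.889).

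**Figure D5:**
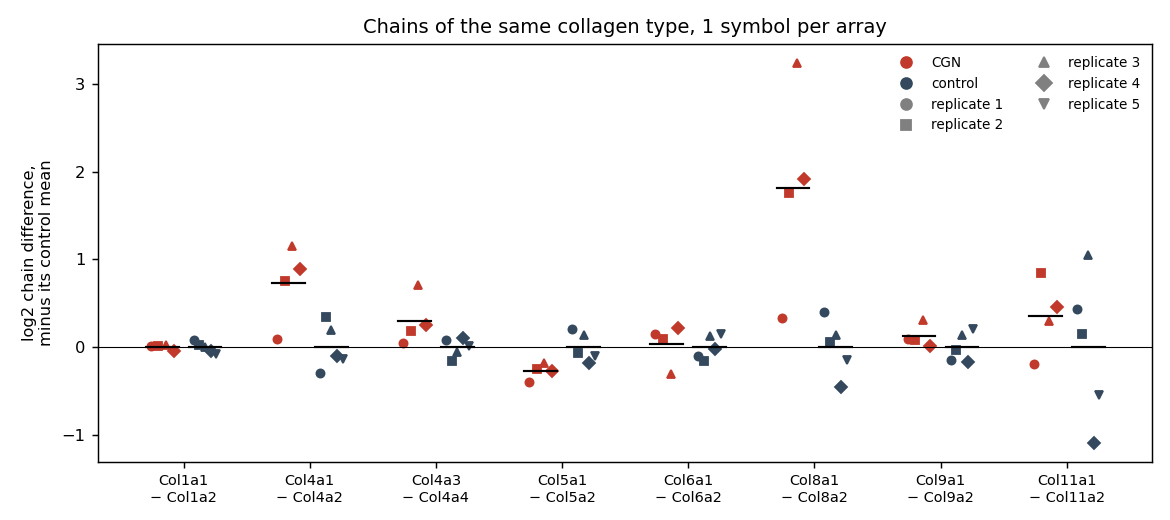
For 8 pairs of chains the difference in log2 intensity between chains is shown by array, after subtracting the control mean of the pair, with CGN left of control within each pair. Col8a1 minus Col8a2 is highest on CGN replicate 3, and CGN replicate 1 lies near the controls for Col8a1 and Col4a1.

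With the muscle value as a covariate, no collagen passed. The fit across all genes then called 2.64% of them, against 22.2% without it. The muscle value correlated with group at -0.821 over the 9 arrays, a variance inflation of 3.07 for the group term. All 8 collagens kept their sign: Col8a1 was at 1.54 ± 0.67, Col27a1 at 0.86 ± 0.24, Col4a1 at 0.67 ± 0.36, Col16a1 at 0.49 ± 0.25, Col23a1 at -0.38 ± 0.18, Col4a5 at -0.47 ± 0.38, Col17a1 at -0.48 ± 0.24 and Col7a1 at -0.89 ± 0.27. Adjusted p-values ran from 0.102 for Col27a1 and 0.140 for Col7a1 to 0.612 for Col4a5. Col27a1, Col7a1 and Col8a1 kept an unadjusted p under 0.05. The part of muscle RNA in the collagen results was not tested beyond this fit.

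Of the 23 measured genes listed as modifying, folding and exporting collagen chains, 17.4% passed, against 22.2% of all genes. Of 15 hydroxylase and sugar-transfer genes 2 rose and 0 fell: Plod2, whose enzyme hydroxylates lysines used in stable crosslinks, by 1.00 ± 0.23 (adjusted p = 0.0105), and the prolyl 3-hydroxylase P3h2 by 0.85 ± 0.18 (adjusted p = 0.00569). The second P3h2 probe set was at -0.01. Of 8 measured folding and export genes, the coat protein gene Sec24d, needed for procollagen export, rose by 0.42 ± 0.12 (adjusted p = 0.0315). Tango2, listed with them without an established part in collagen export, fell by 0.71 ± 0.13 (adjusted p = 0.00241). The Sec24d call was lost without any 1 of 6 arrays, CGN replicates 2, 3 and 4 and control replicates 1, 2 and 5. The collagen chaperone Serpinh1 was at 0.24 ± 0.20. Of 9 genes for cutting procollagen 0 passed limma and 1 had an unadjusted p under 0.05 (Tll1, named after its values were seen), with Bmp1 at 0.16 ± 0.16 and its enhancer Pcolce at -0.04 ± 0.21.

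Of 7 crosslinking genes, 3 rose and 0 fell, against 8.72% and 13.5% of all genes. The transglutaminase Tgm2 rose 4.09-fold (2.03 ± 0.21, adjusted p = 7.42e-05), and the lysyl oxidases Loxl4 and Lox rose by 1.53 ± 0.17 and 1.02 ± 0.16 (adjusted p = 0.000166 and 0.00137). Lox had intensities of 1943, 2361, 2684 and 2881 in CGN skin (replicates 1 to 4), against 1272, 1061, 1642, 1151 and 986 in control skin (replicates 1 to 5). Every CGN array lay above every control. In the fit with the muscle covariate Tgm2 and Loxl4 passed and Lox did not (1.23 ± 0.29, adjusted p = 0.0543).

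Of 14 fibril-binding genes 1 rose and 1 fell, against 8.72% and 13.5% of all genes. Fibronectin, Fn1, a glycoprotein that guides collagen assembly, rose by 0.41 ± 0.09 (adjusted p = 0.00880). Osteomodulin, Omd, fell by 1.21 ± 0.38 (adjusted p = 0.0405). Omd lost the call without any 1 of 8 arrays, all but CGN replicate 1. The 10 measured collagen receptor genes moved in both directions: 1 rose and 2 fell, against the same shares of all genes. Integrin Itgb1, the β1 chain shared by the collagen-binding integrins, rose 1.73-fold (0.79 ± 0.10, adjusted p = 0.000291). The collagen-binding kinase Ddr1 fell by 1.43 ± 0.25 (adjusted p = 0.00228), and its second brightest probe set did not pass (-0.13, adjusted p = 0.620). Integrin Itga11, a fibrillar collagen receptor, fell by 0.81 ± 0.19 (adjusted p = 0.0110).

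Of 12 genes for collagen breakdown and its inhibitors, 3 rose and 0 fell, against 8.72% and 13.5% of all genes. Timp1, an inhibitor of matrix metalloproteinases, rose 14.0-fold (3.81 ± 0.29, adjusted p = 6.69e-06), the gelatinase Mmp9 by 1.22 ± 0.21 and the neutrophil collagenase Mmp8 by 1.28 ± 0.30 (adjusted p = 0.00231 and 0.0108). Mmp8 and Mmp9 were dim, with means of 21.5 and 36.6 in CGN and 8.82 and 15.8 in control skin. The collagenase Mmp13 was at 0.61 ± 0.20 (adjusted p = 0.0555). The part of leukocyte RNA in these rises was not tested.

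Of 15 genes known to regulate collagen expression, 3 rose and 3 fell, against 8.72% and 13.5% of all genes. Tgfb1, the growth factor that raises collagen synthesis in fibroblasts, rose by 1.01 ± 0.17, whereas its relatives Tgfb2 and Tgfb3 fell by 0.74 ± 0.18 and 0.70 ± 0.20 (adjusted p = 0.00176, 0.0123 and 0.0265). The transcription factors Cebpb and Twist2 rose by 1.18 ± 0.10 and 1.31 ± 0.18, and Sp1 fell by 0.48 ± 0.12 (adjusted p = 2.06e-05, 0.000506 and 0.0142). The second brightest Sp1 probe set rose by 0.42 (adjusted p = 0.0204), so the direction for Sp1 depended on the probe set. The Tgfb3 call was lost without CGN replicate 2 or 3 or control replicate 3, and the Tgfb2 and Twist2 calls on their second probe sets. In all, 16 of the 108 measured partner genes rose and 11 fell, or 14.8% and 10.2%, against 8.72% and 13.5% of all genes.

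With the muscle covariate, 7 of these 27 partner genes still passed (Tgm2, Loxl4, Timp1, Mmp8, Itgb1, Fn1 and Cebpb) and 20 did not. For 10 of the 27 the log2 change shrank by more than 1.5 times: P3h2 was then at 0.18 ± 0.19 (adjusted p = 0.720), Itga11 at -0.16 ± 0.24 (adjusted p = 0.821) and Ddr1 at -0.85 ± 0.40 (adjusted p = 0.329). Among basement membrane and fibril-binding genes, Smoc2 was at -0.28 ± 0.49, Lamb2 at -0.10 ± 0.20, Agrn at -0.47 ± 0.31 and Omd at -0.26 ± 0.58. The others were Sec24d at 0.18 ± 0.21, Tgfb2 at -0.25 ± 0.27 and Tgfb3 at 0.02 ± 0.23, where the sign turned.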

How the data were processed

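RNA from skin of 4 CGN and 5 control rats was read on 1-colour arrays, and the authors deposited RMA intensities on a linear scale (43685 probe sets, 4.07 to 27404.42), per the submitters' processing notes, with no version given. Array, background and batch information was not used here. The number of arrays limits the precision. Probe sets were named by deposited symbols, updated through the reference tables by symbol or accession, and the probe set with the highest mean log2 intensity stood for each of 19101 genes. The deposited intensities were turned to log2 and fitted with limma 3.58.1 (R 4.3.3; lmFit, eBayes) on all 9 arrays without covariates, and p-values were adjusted by Benjamini-Hochberg over all genes. The steps were tested on simulated data. Chain pairs used exact permutation in scipy 1.17.1. Every collagen is named, with partner genes past 0.05 and a few singled out after their values were seen. Of these, 1 partner gene past the threshold is counted but not reported here. The members and lists were chosen with earlier results of these data known. Alternatives were quantile normalization, median centring, other probe sets, leaving out the dimmest 30% (mean intensity under 16.8, which removed 3 collagens, Col4a4, Col6a6 and Col10a1, and kept 34), other variance models, array weights, a replicate block, a muscle covariate and leaving out each array. Replicate numbers were checked for pairing: same-numbered arrays deviated together at correlations of -0.28, 0.04, 0.01 and -0.12, so they were not paired. The deposited data give CGN replicate 4 the number 5 in 1 place. Its correlation with control replicate 5 was -0.29, and the replicate block used number 4.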

Additional observations from a re-analysis of the deposited data

Results flagged for a closer look

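In 92 groups of collagen values and marker means searched for an array far from the rest of its group, 3 were found, and chance gives about 1 in 20. For Col3a1, CGN replicate 4 (23003) lay above the other CGN arrays (20584 to 20869), with a gap of 0.876 of the group's range, past Dixon's critical value for 4 arrays. For Col27a1, CGN replicate 3 (249) lay above the other CGN arrays (212 to 216), with a gap of 0.874 of the range. For the mean of the keratinocyte markers, CGN replicate 1 (12.2) lay above the other CGN arrays (11.3 to 11.5), with a gap of 0.833 of the range. Krt15 carried most of this gap (5538 on CGN replicate 1, 61.9 to 88.0 on the other CGN arrays). Over the 9 markers without Krt15, an alternative chosen after seeing the data, the gap was 0.548 of the range and no longer past the critical value.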

How the results depend on the processing

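Benjamini-Hochberg calls over all genes numbered 4243 with every array, 2603 with a replicate block and 505 with the muscle covariate. Collagens that rose numbered 4 with every array, 2 with the second brightest probe set, 2 without moderation of the variance, 1 with the replicate block and 0 with the muscle covariate. Collagens that fell numbered 4 with every array, 3 without moderation, 1 with the block and 0 with the covariate. In the test without moderation, Col8a1, Col4a1 and Col4a5 lost the call (adjusted p = 0.0551, 0.0720 and 0.0901). Leaving out 1 array gave 3 to 6 rises and 2 to 5 falls, with the fewest falls (2) without CGN replicate 2 or 4. The numbers do not pair the rats, and Col7a1 and Col27a1 were the collagens that passed with the block. The log2 changes given next had the opposite sign to the value with every array, and of these 1 passed the test, Sp1 at 0.42. On the mean of probe sets they were -0.00522 for Col4a2, 0.000554 for Col22a1 and 0.0200 for Sp1. On the second brightest probe set they were -0.0238 for Col4a2, -0.18 for Col5a2, 0.22 for Col8a2, -0.0964 for Col9a1, -0.0821 for Col11a2, 0.00338 for Col22a1, -0.00365 for Col27a1, -0.00854 for P3h2, 0.043 for Lama5, 0.42 for Sp1, 0.0935 for Col5a1 minus Col5a2 and -0.0928 for Col9a1 minus Col9a2. With the replicate block they were -0.0135 for Col4a2 and -0.00632 for Col24a1. With array weights they were 0.0739 for Col5a1, 0.0488 for Col9a2 and 0.0969 for Pcolce. With the muscle covariate they were 0.38 for Col5a1, -0.24 for Col5a3, 0.19 for Col6a3, 0.16 for Col8a2, 0.25 for Col9a2, -0.42 for Col13a1, 0.45 for Col14a1, -0.16 for Col18a1, 0.0195 for Tgfb3 and 0.46 for Pcolce. After quantile normalization they were 0.0183 for Col9a2 and 0.0354 for Col22a1. After median centring they were 0.000389 for Col9a2. Leaving out 1 array gave values on both sides of 0, from -0.0307 to 0.0892 for Col4a2, -0.23 to 0.0343 for Col5a1, -0.0216 to 0.38 for Col5a3, -0.0627 to 0.0548 for Col9a2, -0.0227 to 0.19 for Col13a1, -0.20 to 0.039 for Col14a1, -0.20 to 0.0122 for Col20a1, -0.0507 to 0.00608 for Col22a1, -0.0192 to 0.10 for Col24a1, -0.17 to 0.10 for Pcolce, -0.0912 to 0.0298 for Krt14, -0.016 to 0.0246 for Col1a1 minus Col1a2 and -0.0218 to 0.15 for Col6a1 minus Col6a2. The cause of these changes was not tested. Without detection calls, little can be said of dim members such as Col4a4, Col6a6 and Col10a1.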
